A study of Rattus norvegicus with 6 samples.

Results

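The 8 genes Oat, Aldh18a1, Prodh, Prodh2, Aldh4a1, Glud1, Gls2 and Glul encode liver enzymes that link ornithine, proline, glutamate and glutamine. They were taken as every probe set whose platform annotation gives exactly 1 gene symbol and names 1 of them, which gave 12 of the 31042 probe sets tested and 8 of the 14217 genes with a symbol. Glul had 3 probe sets, Glud1 and Prodh had 2 each, and the others had 1. RNA came from livers of 6-week-old male Wistar rats of about 150 g, with 3 arrays from rats on the control diet (15P) and 3 from rats on an isoenergetic diet low in protein (5P). All rats had 4 days of pellets and then 4 days of training on the control diet in a daily window, and ate their assigned diet for 8 hours. Livers were taken after 16 more hours without food, so both groups were fasted at sampling. By its title, the series asked about a fast rise of the hepatic hormone FGF21 when protein is short. The labels do not state that each array is a separate animal, so the spread between arrays may be partly technical. The 8 genes were chosen by their pathway with the fold changes and calls of this same diet comparison in view, Oat being among the strongest falls in it. Their differences are therefore given as a description, without p-values, and support nothing.

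Ornithine aminotransferase, the product of Oat, moves the amino group of ornithine onto 2-oxoglutarate and yields glutamate and glutamate semialdehyde, which is in equilibrium with pyrroline-5-carboxylate, the shared intermediate of proline synthesis and breakdown. The Aldh18a1 product makes pyrroline-5-carboxylate from glutamate. Prodh encodes the enzyme that oxidises proline to it, the Prodh2 product acts on hydroxyproline, and the Aldh4a1 product turns pyrroline-5-carboxylate back into glutamate. Glud1 encodes the mitochondrial enzyme that releases ammonia from glutamate. Gls2, the liver-type glutaminase of periportal hepatocytes, splits glutamine, and Glul, the glutamine synthetase of the last hepatocytes before the central vein, makes it from glutamate and ammonia.

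Of the 8 enzymes, Oat had the largest diet difference, at 5.59-fold less RNA signal after the low-protein diet. Prodh (on the brighter of its probe sets) and Aldh4a1, the pair that degrades proline, and Gls2 were lower on every low-protein array than on any control array, with means 1.53-fold to 1.70-fold lower, and Aldh18a1, on the synthesis side, was higher on every low-protein array. Glud1, Glul and Prodh2 overlapped between diets on each of their probe sets. At an adjusted p under 0.05 over all probe sets (limma's moderated test with Benjamini-Hochberg adjustment), 1 of the 12 probe sets was called, that of Oat, beside 0.132% of all probe sets. Groups did not overlap for 5 of the 12, 4 of them lower and 1 higher in low protein, beside 21.6% of all probe sets (9.12% lower and 12.5% higher). Since the choice of genes used this contrast, nothing is read from these shares. The log2 fold change (low protein minus control throughout) was below 0 for 8 of the 12, beside 41.9% of all probe sets, and ran from -2.48 to 0.55, with a median of -0.08, beside a median of 0.03 over all probe sets.

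**Figure D1:**
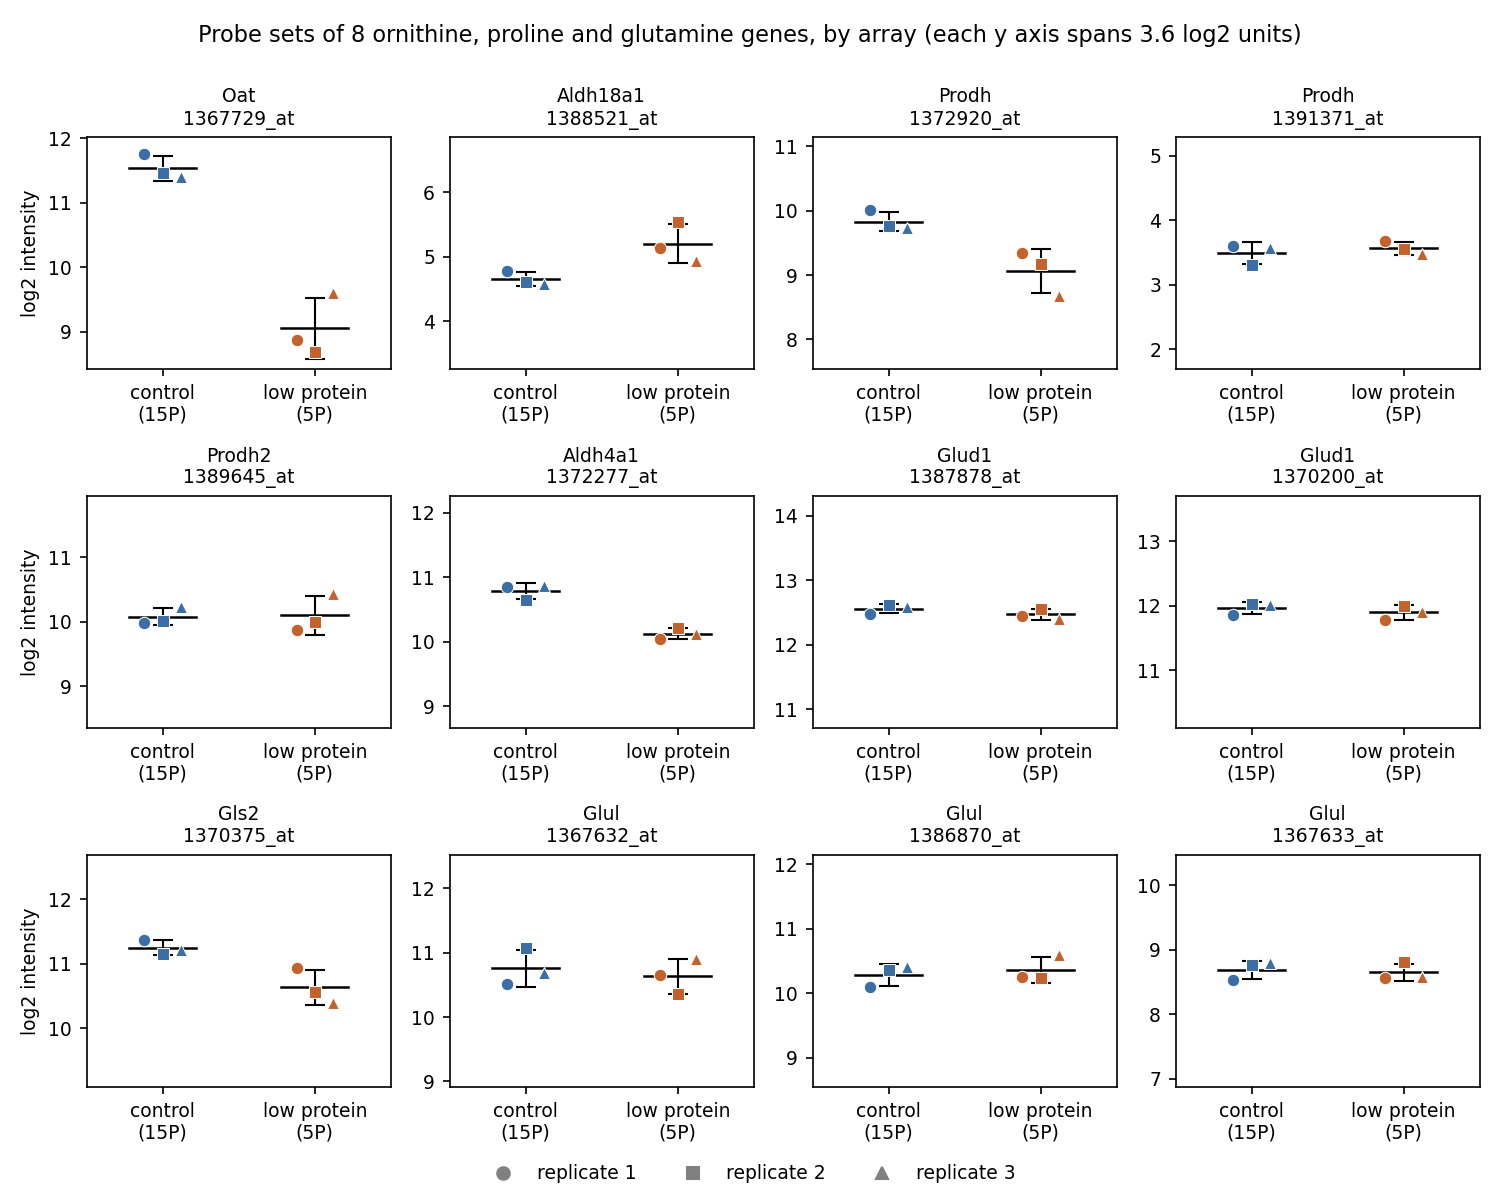
Each panel plots 1 probe set, with the log2 intensity on the y axis and the diets on the x axis; points are single arrays, marked by replicate number, the horizontal line is the mean and the bars are 1 SD (n = 3). The low-protein points of Oat lie between 8.69 and 9.60 and its controls between 11.40 and 11.75, while the points of Glud1, Glul and Prodh2 overlap.

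Of the 4 genes that were lower without overlap, 3 had promoter windows in the RefSeq table, which holds 250 bases before to 50 bases after each listed gene start of assembly GRCr8. These windows are shown because their genes were low on the same arrays. Capitals mark matches to any of 7 motifs searched on both strands, and each sequence runs 5′ to 3′ on the strand of the gene. The Oat window is chr1:196797705-196798004, minus strand. That of Aldh4a1 is chr5:157162939-157163238, plus strand, and that of Gls2, the first of its 2 windows, is chr7:1201629-1201928, plus strand.
Oat: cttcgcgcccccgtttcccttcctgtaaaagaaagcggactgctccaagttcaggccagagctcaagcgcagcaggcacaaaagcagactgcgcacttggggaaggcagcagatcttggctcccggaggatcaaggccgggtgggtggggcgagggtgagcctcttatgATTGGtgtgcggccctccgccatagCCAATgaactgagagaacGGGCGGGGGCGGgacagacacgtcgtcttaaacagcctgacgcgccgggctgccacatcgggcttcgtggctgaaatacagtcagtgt
Aldh4a1: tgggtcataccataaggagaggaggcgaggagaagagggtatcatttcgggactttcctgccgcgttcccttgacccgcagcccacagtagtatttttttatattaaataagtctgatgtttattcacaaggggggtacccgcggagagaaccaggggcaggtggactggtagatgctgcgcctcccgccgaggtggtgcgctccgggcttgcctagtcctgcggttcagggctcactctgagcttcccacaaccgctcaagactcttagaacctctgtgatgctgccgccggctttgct
Gls2: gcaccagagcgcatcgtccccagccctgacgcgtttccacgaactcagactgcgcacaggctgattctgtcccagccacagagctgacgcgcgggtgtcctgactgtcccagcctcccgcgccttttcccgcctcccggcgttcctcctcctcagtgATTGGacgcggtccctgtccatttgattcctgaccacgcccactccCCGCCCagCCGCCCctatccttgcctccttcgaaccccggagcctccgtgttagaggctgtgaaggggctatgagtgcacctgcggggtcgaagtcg
The Oat window has 2 CCAAT boxes (CCAAT), at 81 and 56 bases before the start, and 2 GC boxes (GGGCGG) that abut each other, at 38 and 32 bases before it. The first Gls2 window has 1 CCAAT box at 93 bases and 2 GC boxes at 47 and 39 bases before its start. The second Gls2 window, not printed, and the Aldh4a1 window have no match. No match overlapped a match of another motif. A CCAAT box is in 37.5% and a GC box in 33.1% of the 33469 windows of the table. The other 5 motifs had no match in any of the 8 windows of the 6 genes listed (Oat, Prodh2, Aldh4a1, Glud1, Gls2 and Glul). They were the ATF4-C/EBP composite TGATGNAA (in 3.98% of all windows), the C/EBP motif TTGCNNAA (10.6%), the cyclic AMP response element TGACGTCA (1.83%), the TCF/LEF motif CTTTGAA (5.4%) and the sterol regulatory element TCACNCCAC (1.12%). These letters are a description of short windows, and sites elsewhere in the genes were not analysed here.

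Median intensities of the 6 arrays (RMA values on a linear scale) were 33.3 to 33.7 in controls and 33.8 to 34.3 in low protein, without overlap. Arrays carry no read depth, so the number of arrays limits the precision. Control replicate 3 scored -10.11 on the first principal component (36.9% of the variance), beside -26.9 and -22.5 for the other controls and 17.3 to 22.6 for low protein. The summed level of 7 hepatocyte markers (log2 of their added linear intensities) ran from 16.33 to 16.40 in controls. In low protein it ran from 16.32 to 16.34, so the labelled tissue carried its defining RNAs in both groups. Red blood cell markers were higher in 3 of 4 cases, none of them called, and their sum ran from 11.47 to 11.60 in controls and from 11.98 to 12.07 in low protein. Within it the log2 fold changes were 0.48 for Hbb, 0.43 for Alas2, 0.14 for Slc4a1 and -0.06 for Epb42. Pancreas markers were higher in 8 of 8 cases, none of them called, beside 8193 of all 14217 genes higher. Their sums overlapped (9.47 to 10.15 and 9.57 to 10.63). The mean log2 level over the pancreas markers was low, at 4.40 to 4.70 on control arrays and 4.76 to 4.82 on low-protein arrays. The part of either set in the differences of the 8 genes was not tested. The sums of Kupffer, stellate, endothelial, cholangiocyte, lymphocyte, neutrophil and adipocyte markers overlapped between diets.

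Oat (gene ID 64313, probe set 1367729_at) read 11.75, 11.46 and 11.40 (log2 intensity) on control replicates 1 to 3 and 8.87, 8.69 and 9.60 on low-protein replicates 1 to 3. All 3 low-protein arrays were below all 3 controls, with an empty gap of 1.80 between the groups, and low-protein replicate 3 was the least reduced. On the linear scale these values were 3451, 2821 and 2693 in controls and 468.4, 413.9 and 774.1 in low protein. The mean went from 11.54 ± 0.19 to 9.05 ± 0.48 (SD, n = 3 each), a log2 fold change of -2.48 (SE 0.220, 95% interval -2.99 to -1.98), or 5.59-fold lower. It was the third lowest log2 fold change of the 31042 probe sets. With 1 array left out the log2 fold change ran from -2.75 to -2.30. Oat passed the threshold in each of those 6 fits, but not when 16 was added to every intensity before taking log2. Oat was chosen with this contrast in view, so these calls are a description and support nothing. In whole liver, fewer cells that express a gene and less RNA per cell cannot be told apart.

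Aldh18a1 (gene ID 361755, probe set 1388521_at), the entry enzyme of proline and ornithine synthesis from glutamate, was dim. It read 4.77, 4.62 and 4.58 (log2) in controls and 5.13, 5.54 and 4.94 in low protein, below the array's own median on 4 of the 6 arrays. The low-protein arrays were all above the controls, by a gap of 0.17 at the nearest points, and low-protein replicate 2 was the highest. The means were 4.66 ± 0.11 and 5.21 ± 0.31 (SD, n = 3 each), a log2 fold change of 0.55 (SE 0.151, 95% interval 0.21 to 0.90), which is 1.47-fold, and it did not pass the threshold. With 16 added to each intensity the log2 fold change was 0.37.

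Proline breakdown starts with Prodh (gene ID 680409), whose brighter probe set, 1372920_at, read 10.00, 9.75 and 9.73 in controls and 9.34, 9.16 and 8.68 in low protein. The groups did not overlap, low-protein replicate 3 was the lowest array, and the spread was wider in low protein (9.06 ± 0.34) than in controls (9.83 ± 0.15; SD, n = 3 each). The log2 fold change was -0.77 (SE 0.169, 95% interval -1.15 to -0.38), or 1.70-fold lower. The second Prodh probe set, 1391371_at, lay below the array median on all 6 arrays, between 3.31 and 3.68, and its groups overlapped (log2 fold change 0.07, SE 0.110; -0.02 without control replicate 2).

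Aldh4a1 (gene ID 641316, probe set 1372277_at), which completes the conversion of proline to glutamate, read 10.84, 10.65 and 10.87 in controls and 10.05, 10.21 and 10.12 in low protein. Both groups were tight, at 10.79 ± 0.12 and 10.12 ± 0.08 (SD, n = 3 each), and a gap of 0.44 separated them. The log2 fold change was -0.66 (SE 0.097, 95% interval -0.89 to -0.44), or 1.58-fold lower. It lay just outside the threshold as deposited. Of 15 other settings it passed in 3: a robust prior variance, median centring of the arrays and array weights. It passed in no fit with an array left out.

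Prodh2 (gene ID 361538, probe set 1389645_at), the hydroxyproline enzyme, read 9.98, 10.01 and 10.23 in controls and 9.86, 9.99 and 10.43 in low protein. The lowest and the highest of the 6 arrays were both low-protein arrays. Its log2 fold change of 0.02 (SE 0.152) had a 95% interval of -0.32 to 0.37, which leaves room for a difference of that size in either direction, and its sign changed with median centring and when control replicate 1, control replicate 2 or low-protein replicate 3 was left out.

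**Figure D2:**
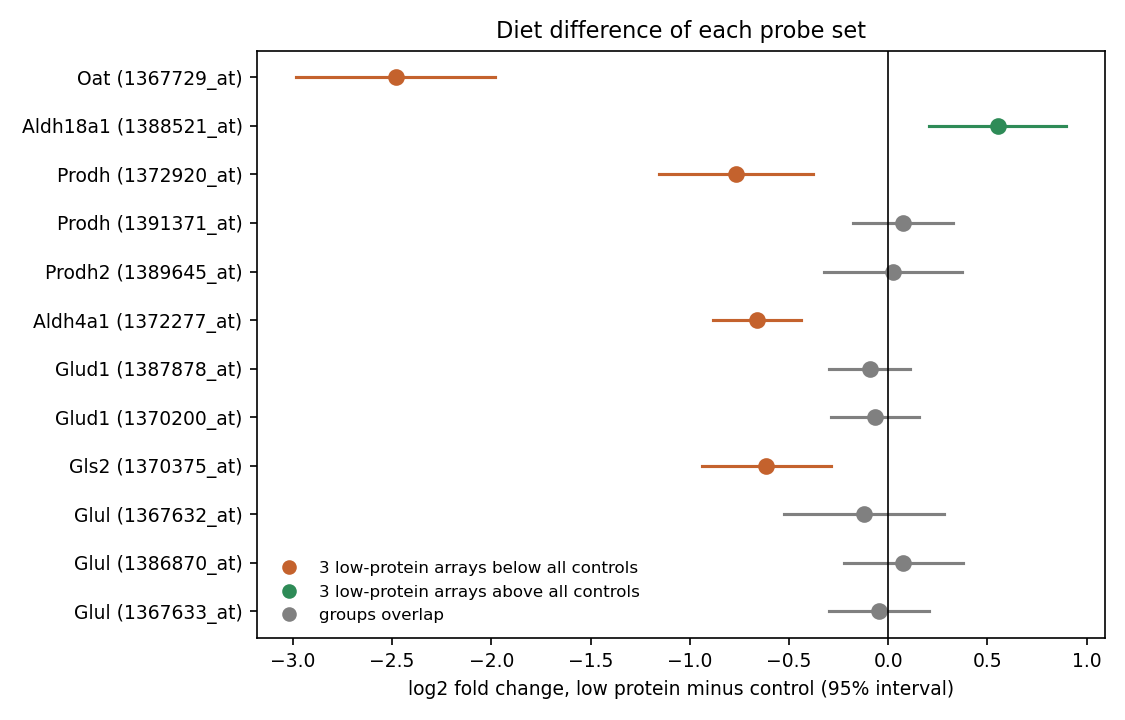
The x axis gives the log2 fold change (low protein minus control) of each of the 12 probe sets, with its 95% interval from limma's moderated standard error, and colours show whether the 3 arrays of each diet overlap. Oat lies at -2.48; Prodh (1372920_at), Aldh4a1 and Gls2 lie between -0.77 and -0.61, and Aldh18a1 lies at 0.55.

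Glud1 (gene ID 24399), which links glutamate to ammonia and 2-oxoglutarate, read 12.48, 12.61 and 12.59 in controls and 12.45, 12.56 and 12.40 in low protein on probe set 1387878_at. On probe set 1370200_at the controls read 11.86, 12.02 and 12.01 and the low-protein arrays 11.79, 12.01 and 11.91. The groups overlapped on both, with log2 fold changes of -0.09 (SE 0.089, 95% interval -0.30 to 0.11) and -0.06 (SE 0.097, 95% interval -0.29 to 0.16).

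Gls2 (gene ID 192268, probe set 1370375_at), which opens glutamine breakdown in periportal cells, read 11.37, 11.15 and 11.21 in controls and 10.93, 10.56 and 10.39 in low protein. All low-protein arrays were below all controls, by 0.22 at the nearest points, and low-protein replicate 3 was again the lowest. The means were 11.24 ± 0.12 and 10.63 ± 0.28 (SD, n = 3 each), a log2 fold change of -0.61 (SE 0.143, 95% interval -0.94 to -0.29), or 1.53-fold lower. It passed the threshold in none of the 15 other settings tried, and its log2 fold change ran from -0.76 to -0.50 over them.

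Glul (gene ID 24957), which makes glutamine, had 3 probe sets that overlapped between diets. Probe set 1367632_at read 10.51, 11.07 and 10.68 in controls and 10.64, 10.35 and 10.90 in low protein. Probe set 1386870_at read 10.09, 10.36 and 10.40 in controls and 10.25, 10.24 and 10.59 in low protein, and 1367633_at read 8.53, 8.76 and 8.79 in controls and 8.57, 8.81 and 8.58 in low protein. No diet was high or low on all 3 of its arrays. The log2 fold changes were -0.12, 0.08 and -0.04 (SE 0.176, 0.131 and 0.110), their 95% intervals together spanned -0.52 to 0.38, and each changed sign in 2 of the 11 other settings that alter a fold change. The genes of the enzymes that split and make glutamine differed in whether their diet groups overlapped; the difference between them was not tested.

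Low-protein replicate 3 was the lowest of the 6 arrays for Prodh (1372920_at) and Gls2, and the highest low-protein array for Oat. The order of the low-protein arrays was the same for Prodh (1372920_at) and Gls2, and differed for Oat. In controls the range over the 3 arrays of a probe set was widest for Glul 1367632_at (0.56) and Oat (0.36). In low protein it was widest for Oat (0.90), Prodh 1372920_at (0.67) and Aldh18a1 (0.60).

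Other genes that handle these amino acids were followed in 6 lists, 1 probe set a gene, in all 77 measured genes beside the 8. The lists were chosen with earlier results of these data known, so their shares and p-values are a description. Of these 2 rose, none fell and 75 did not pass (limma, adjusted over all genes), beside 0.183% of all genes called (0.0633% higher and 0.12% lower); 23 of the 77 had an unadjusted p under 0.05. Groups did not overlap for 26 of the 77 (11 lower and 15 higher), beside 22.9% of all genes (10.1% lower). The median log2 fold change of the 77 was 0.007, beside 0.03 over all genes. It was above 0 for 42 of the 77, beside 8193 of all 14217 genes. The counts of higher and lower genes in each list stand beside that same share. The 2 that rose use glutamine or glutamate as nitrogen donor: asparagine synthetase, Asns, rose by 3.36 on the log2 scale (SE 0.365, limma adjusted p = 0.0231), and the phosphoserine aminotransferase of serine synthesis, Psat1, rose by 2.67 (SE 0.341, limma adjusted p = 0.0359). Neither call held in every leave-one-out fit: none of the 77 passed without control replicate 1 or without control replicate 2, Asns alone passed without control replicate 3, low-protein replicate 1 or low-protein replicate 2, and Psat1 alone without low-protein replicate 3.

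Proline and hydroxyproline genes were close to level, with 5 of 8 lower, none called and a median of -0.08. The extremes were -0.21 for Hoga1, of hydroxyproline breakdown (SE 0.087; -0.13 as the mean of its probe sets), and 0.21 for the aminotransferase gene Agxt, and Pycr3, a pyrroline-5-carboxylate reductase that makes proline, had 0.15 (SE 0.083). Grhpr, the glyoxylate reductase downstream of Hoga1, had -0.14. Among 11 genes of ornithine use and transport, 7 were lower and none was called. Otc, a urea cycle enzyme that also uses ornithine, had 12.58, 12.38 and 12.53 in controls and 11.99, 11.79 and 11.70 in low protein (log2 fold change -0.67, SE 0.106, limma adjusted p = 0.0623). Odc1, which commits ornithine to polyamines, had 0.36 (SE 0.092), and Azin1, an inhibitor of the antizymes that bind ornithine decarboxylase, had -0.41 (SE 0.123). The mean of the Azin1 probe sets gave -0.29, and its probe set of largest SD gave -0.54. The mitochondrial ornithine carrier gene Slc25a15 had 0.01 (SE 0.086).

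Among 17 carriers of glutamine and glutamate 11 were higher, 6 lower and none was called. Slc38a4, an amino acid carrier of hepatocytes, was lower on all 3 low-protein arrays (log2 fold change -0.43, SE 0.086, limma adjusted p = 0.087). Slc1a4 had 0.94 (SE 0.297), or 0.58 without low-protein replicate 2 and 0.64 with 16 added to each intensity. Slc38a1 had 0.25 (SE 0.092), or 0.15 as the mean of its probe sets and 0.13 with 16 added to each intensity. Slc1a2, a glutamate carrier of pericentral hepatocytes, had -0.63 with overlapping groups. Of 11 amidotransferases and related genes 8 were higher, and beside Asns the CTP synthase gene Ctps1 had 0.64 (SE 0.128, limma adjusted p = 0.0877) and Gfpt2, of hexosamine synthesis, had 0.30 (SE 0.100). As the mean of its probe sets Ctps1 had 0.32, and with 16 added to each intensity Gfpt2 had 0.13. Of 19 genes for glutamate aminotransferases and other glutamate enzymes 10 were higher and 9 lower, with a median of 0.004. Beside Psat1, the succinate semialdehyde dehydrogenase gene Aldh5a1 had -0.63 (SE 0.139) and the cytosolic aspartate aminotransferase gene Got1 had -0.67 (SE 0.147), whereas the mitochondrial Got2 had 0.11 with overlapping groups. The mean of the Aldh5a1 probe sets gave -0.35. In the list of factors tied to these genes, the glucocorticoid receptor gene Nr3c1 had -0.69 (SE 0.124, limma adjusted p = 0.0765), and Axin2 and Tbx3, targets of Wnt signalling in pericentral cells, had 0.22 (SE 0.093) and 0.19 (SE 0.088). The mean of the Nr3c1 probe sets gave -0.45, and the Tbx3 probe set of largest SD gave 0.40. The summed level of the carriers ran from 13.71 to 13.79 in controls and from 13.43 to 13.58 in low protein, without overlap. Sums were also lower without overlap for the proline, ornithine, amidotransferase and glutamate enzyme lists. For the last the groups almost met (14.447 to 14.503 in controls, 14.321 to 14.445 in low protein). A sum of linear intensities follows its brightest genes, so it does not describe most genes of a list. The brightest carrier gene, Slc38a4, had means of 12.50 in controls and 12.06 in low protein, though 11 of 17 carriers were higher. Cps1, the brightest of the amidotransferase list, had 13.25 and 13.02, though 8 of 11 genes there were higher. The sums of the list of factors overlapped.

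**Figure D3:**
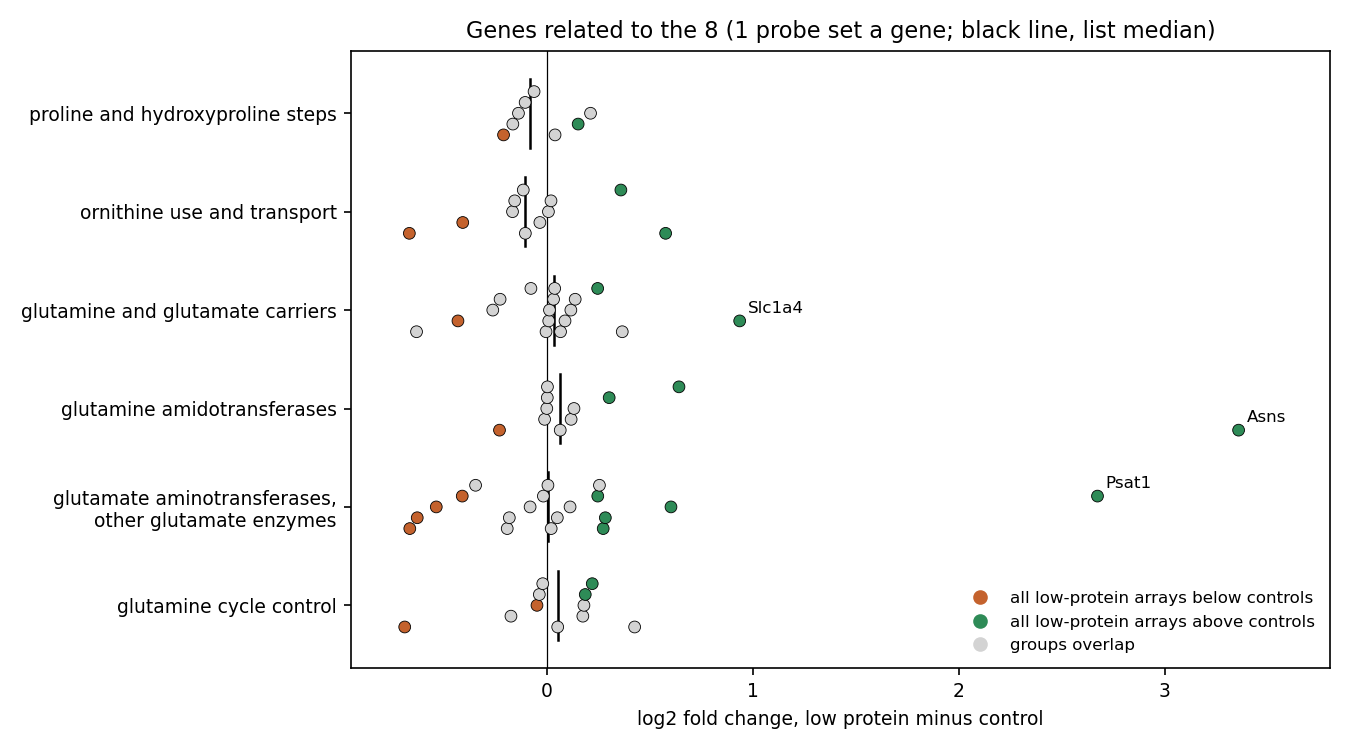
Each point is 1 of the 77 related genes, placed by its log2 fold change (low protein minus control) on the x axis and by its list on the y axis; colours show whether the arrays of the diets overlap and black lines are list medians. Asns at 3.36 and Psat1 at 2.67 stand away from the others, and the 6 list medians lie between -0.11 and 0.06.

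Oat and Glul are pericentral and Gls2 is periportal in the liver lobule, so the other markers of these zones are given beside them. Among 11 measured pericentral markers without the 8 genes, 6 were higher (3 without overlap) and 5 lower (0 without overlap). None was called, and the summed level overlapped between diets (14.11 to 14.38 in controls, 14.31 to 14.45 in low protein). Their log2 fold changes ran from -0.63 for Slc1a2 (SE 0.262) to 1.18 for Aldh1a1 (SE 0.232). Among 11 periportal markers without Gls2, 11 were lower (6 without overlap). Over all 14217 genes, 6024 were lower (1438 without overlap) and 8193 higher (1813 without overlap). None of these 11 periportal markers was called and their median was -0.28. Their log2 fold changes ran from -1.89 for Sds (SE 0.432) to -0.005. The summed level of these periportal markers ran from 15.44 to 15.50 in controls and from 15.09 to 15.20 in low protein, without overlap. Their part in the Gls2 difference was not tested.

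By the smallest root mean square difference from Oat in log2 intensity over the 6 arrays, each gene centred on its own mean, the 5 closest among genes brighter than the median gene were Fads1 (0.155), Fads2 (0.328), Insig1 (0.424), Cyp51 (0.442) and Akr1c3 (0.519). Fads1 and Fads2 encode desaturases of polyunsaturated fatty acids, Insig1 a regulator of sterol synthesis and Cyp51 a sterol demethylase. Fads1 read 12.53, 12.34 and 12.36 in controls and 9.97, 9.91 and 10.75 in low protein, with low-protein replicate 3 the least reduced, as for Oat. The measure uses the same 6 arrays that chose Oat, and it is a description.

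**Figure D4:**
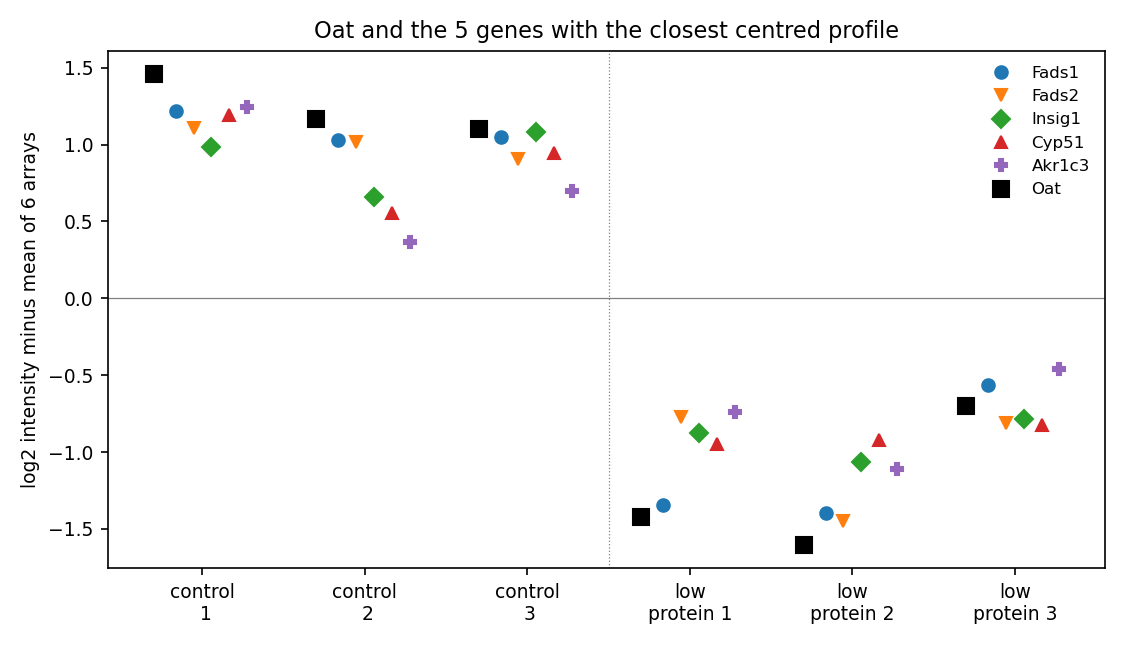
The y axis gives the log2 intensity of Oat and of the 5 closest genes on each array minus the gene's mean over the 6 arrays, and the x axis lists the arrays by diet. All 6 genes lie above 0 on the control arrays and below 0 on the low-protein arrays, and Fads1 lies closest to Oat, with a root mean square difference of 0.155.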

How the data were processed

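Biotin-labelled liver RNA was hybridised to Affymetrix rat arrays, as the labels' protocols state. The authors deposited 1 linear intensity per probe set and array, made with RMA per the submitters' processing notes; its version is not given. RMA normalizes between arrays, so a shift common to most genes is reduced or removed, though the medians as deposited still separated by diet. Here 57 Affymetrix control probe sets were dropped and log2 was taken of the other 31042. Symbols come from the platform annotation, which can be old; all 8 genes matched RefSeq (GRCr8) by gene ID. Diets, taken from the titles, were compared with limma 3.58.1 in R 4.3.3 (two-sided, 8.38 degrees of freedom, Benjamini-Hochberg over all probe sets, threshold 0.05; checked on simulated data). Related genes used the probe set of highest mean, adjusted over 14217 genes. Named are all 8 genes, of each related list those called and up to 3 of smallest p, and the 5 genes closest to Oat. Agxt, Slc25a15, Slc1a2, Got2, Cps1, Aldh1a1, Sds, the named red blood cell markers and the promoter motifs were chosen after values were seen. The 8 genes and the lists were chosen with earlier results of these data known. Same-numbered arrays did not pair (correlations of deviations from group means -0.09, -0.03 and -0.10). Alternatives were 2 other prior variances, 3 scalings, a median filter, a pseudocount of 16, array weights, a replicate block, each array left out and other probe sets per gene. Figures used matplotlib 3.10.9.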

Additional observations from a re-analysis of the deposited data

How the results depend on the processing

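The log2 fold changes of Oat, Prodh (1372920_at), Aldh4a1, Aldh18a1, Gls2 and both Glud1 probe sets kept their direction in all 11 of the alternatives that alter a fold change (3 scalings, the added 16, array weights and 6 left-out arrays). The filter at the median intensity left out Aldh18a1 and the dim Prodh probe set. The number of the 12 probe sets past the threshold was 1 as deposited, 2 (Oat and Aldh4a1) with a robust prior variance, with median centring and with array weights, and 0 after 16 was added to each intensity; it was 1 in all 6 leave-one-out fits. With the replicate block, a pairing that the arrays did not bear out, it was 0, the 77 related genes gave 2, and all probe sets gave 6; Oat lost its call. Over all probe sets the count was 41 as deposited, of which 11 (26.8%) were higher. It was 103 with a robust prior variance (22.3% higher), 78 with median centring (16.7% higher), 59 with 75th-percentile centring (40.7% higher), 102 with array weights and 0 with the added 16, where limma gave no adjusted p under 0.05. Leave-one-out counts ran from 16 (without low-protein replicate 2) to 109 (without control replicate 3), and each left-out array moved the count by over 1.5 times. Of the 77 related genes 2 passed as deposited, 0 with a robust prior variance, 0 with the added 16, and 0 to 1 with 1 array left out. The cause of these shifts was not tested. Aldh18a1 lay below the array median on 4 of 6 arrays and the dim Prodh probe set on all 6.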
